A study of Mus musculus with 6 samples.

Results

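The enzymes that break down amino acids in liver were examined as a set of 50 genes, chosen as a list of named enzymes and found on the arrays through the RefSeq accession of each probe. This list and those read beside it were chosen with earlier results of these data known, so the shares of all genes printed beside their counts are description only. All 50 were measured, out of 14807 genes measured in all, and 49 of them were well above background on all 6 arrays. Amt, the exception, was so on 1 control and 2 DECB arrays. Mut appears under its current symbol, Mmut. The RNA came from livers of male ICR mice, an outbred stock, and was read on 1-colour arrays in the Cy3 channel. Control mice received normal saline into the stomach, and DECB mice received deproteinized extract of calf blood, a protein-free preparation of calf blood, by the same route and in the same volume, a dose of 0.08 mL for each 20 g of weight given every day over 35 days. The labels describe 24 mice of 18 to 22 g, 12 per group, give no age, and state a test of tolerance to hypoxia in closed containers without saying whether livers were taken before it. The sample descriptions give 1 day for controls and 30 days for DECB, which differs from the 35 days stated elsewhere. Arrays of 3 controls (1, 2 and 3) and 3 DECB samples (4, 5 and 6) were compared. No label says that each array was a separate mouse, so the p-values cover the scatter among these 6 arrays alone, and that scatter may be technical.

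Amino acids that are not used to build protein are stripped of their nitrogen, mostly by aminotransferases and dehydratases, and the nitrogen is passed on to urea. The carbon skeletons are then oxidised or turned into glucose. The liver is the main site for most amino acids, while the branched-chain amino acids lose their nitrogen largely in muscle. Several of these enzymes, among them tyrosine aminotransferase, serine dehydratase and histidine ammonia-lyase, are textbook examples of genes raised by glucagon, glucocorticoids, fasting or protein-rich food and lowered by insulin.

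Arrays that share a scan time in the file headers are called a slide here, and the slides differed in brightness. Control 1 and DECB 6 shared slide 1, DECB 4 shared slide 2 with controls 2 and 3, and DECB 5 was alone on slide 3. The signal's 75th percentile was 78.8 and 84.8 on slide 1 and 422 to 551 on the other arrays. All values below are log2 signals relative to that percentile, and differences are DECB minus control.

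Most enzymes of amino acid breakdown read lower on the DECB arrays. The difference was below 0 for 46 of 50, against 52.5% of all genes tested, and the median difference was -0.55, against -0.027 over all genes. Medians were also below 0 over 43 related enzymes (-0.41), 15 regulators (-0.49) and hepatocyte (-0.31), periportal (-0.39) and pericentral markers (-0.46), lists described below. For other cells, Kupffer (-0.30), endothelial (-0.16) and erythroid (-1.73) medians were below 0. Stellate (0.033), cholangiocyte (0.76) and leukocyte (0.61) medians were above 0. The lowest were Got1 (-2.02), Etnppl (-1.85), Amdhd1 (-1.73), Hal (-1.51), Tdo2 (-1.39), Mat1a (-1.37) and Bhmt (-1.21), and 10 enzymes read at least 2-fold lower, against 4.84% of all genes. Amt, Gpt2, Cbs and Dbt were the 4 above 0, none by more than 0.41. No enzyme passed limma's test with Benjamini-Hochberg adjustment over all genes at 0.05, a rule under which 0.257% of all genes were lower and 0.209% higher. The smallest adjusted p among the enzymes was 0.135, for Amdhd1. At an unadjusted p under 0.05 there were 13 lower enzymes and 0 higher, against 5.79% and 4.22% of all genes. All 3 DECB arrays lay below all 3 control arrays for 17 enzymes, against 9.4% of all genes, and above them for 0, against 7.24%. Without control 3, or without DECB 5, 8 enzymes were lower at an unadjusted p under 0.05, against 3.62% and 4.25% of all genes.

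The values also differed by slide. Relative to each gene's control mean, the median over the 50 enzymes was 0.40 on control 1, -0.22 and -0.16 on controls 2 and 3, -0.71 on DECB 4, -0.88 on DECB 5 and -0.20 on DECB 6. DECB 6, on the dim slide with control 1, lay between controls 2 and 3, while DECB 4 and DECB 5 lay below every control. Within slide 1 the median difference was -0.41 with 44 enzymes lower, and within slide 2 it was -0.54 with 43 lower. Both slides had 41 enzymes lower, against 36.6% of all genes. With slide as a block in limma 10 enzymes passed, all lower, against 3.92% of all genes lower and 2.73% higher, and 26 were lower at an unadjusted p under 0.05, against 16.7%. The 10 were Got1, Etnppl, Amdhd1, Hal, Gnmt, Prodh, Mat1a, Cdo1, Tdo2 and Cth, with adjusted p from 0.0178 to 0.0494. In that fit DECB 5, alone on its slide, does not inform the difference, and 2 residual degrees of freedom remain. They rest on the difference between controls 2 and 3 and on the disagreement between slides 1 and 2. Controls 2 and 3 correlated at 0.992 across genes, and no label says whether they share RNA. Without DECB 6, 38 enzymes had all DECB arrays below all control arrays, against 24.4% of all genes, and 1, Dbt, had them above, against 16.8%. The test over all genes without DECB 6 passed 0 enzymes, with 21 lower at an unadjusted p under 0.05, against 9.31% of all genes. Without both arrays of slide 1, 27 were lower at an unadjusted p under 0.05, against 13.7%, 40 had all DECB arrays below all controls, against 31.1%, and 1, again Dbt, had them above, against 26.5%.

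**Figure D1:**
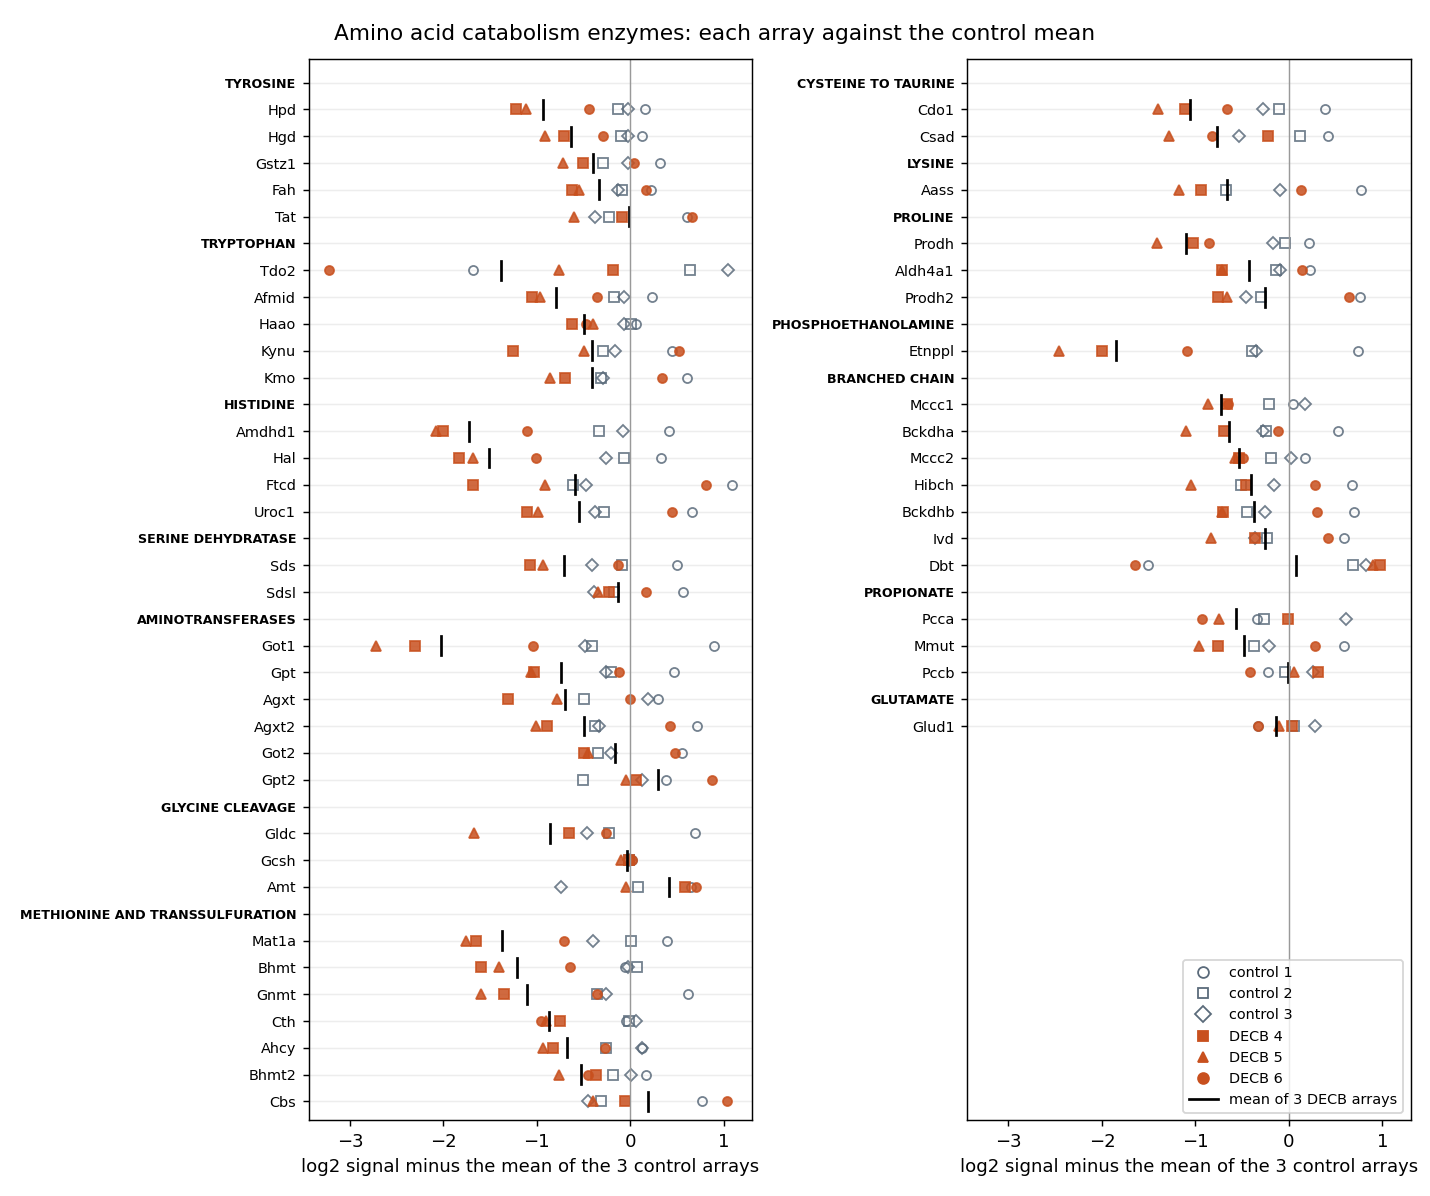
Log2 signal of each of the 50 enzymes on each array minus the mean of its 3 control arrays, by amino acid group; open grey symbols are control arrays, filled orange symbols DECB arrays, circles are slide 1, squares and the diamond slide 2 and the triangle slide 3, and the black bar is the mean of the 3 DECB arrays. Got1, Etnppl, Amdhd1 and Hal show all 3 DECB arrays to the left of all 3 control arrays, while for enzymes such as Ftcd and Prodh2 the circles of control 1 and DECB 6 (slide 1) lie to the right of the other arrays of their group.

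Histidine breakdown had the lowest median of the groups with more than 2 genes, -1.05 over 4 genes (-0.81 within slide 1 and -1.41 within slide 2). Hal, which removes ammonia from histidine to give urocanate, read 5.24, 4.85 and 4.65 on controls 1, 2 and 3 and 3.08, 3.23 and 3.91 on DECB 4, 5 and 6. Every DECB array lay below every control, with a difference of -1.51 (SE 0.34, limma adjusted p = 0.14), and Hal fell in the fit with slide as a block (adjusted p = 0.0255). Amdhd1, which opens the imidazolone ring made from urocanate, read 3.29, 2.53 and 2.79 on controls 1, 2 and 3 and 0.87, 0.79 and 1.77 on DECB 4, 5 and 6. Its groups did not overlap either, the difference was -1.73 (SE 0.38, adjusted p = 0.135), and it also fell with slide as a block (adjusted p = 0.0232). The other histidine enzymes had smaller differences. Uroc1, urocanate hydratase, differed by -0.55 and Ftcd, which hands the formimino group to folate, by -0.60, and for both DECB 6 lay above controls 2 and 3. In the RefSeq annotation Hal and Amdhd1 are neighbours, with 0 protein-coding genes between them.

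The aminotransferases, 6 genes with a median of -0.60, ran from the lowest difference to the second highest among the enzymes. Got1, the cytosolic aspartate aminotransferase, had the lowest difference of all 50 enzymes. It read 7.17, 5.87 and 5.79 on controls 1, 2 and 3 and 3.97, 3.55 and 5.24 on DECB 4, 5 and 6, with no overlap and a difference of -2.02 (SE 0.56, adjusted p = 0.236), a mean level 24.6% of control. Within slides 1 and 2 the difference was -1.93 and -1.86, and Got1 fell with slide as a block (adjusted p = 0.0178). Got2, its mitochondrial counterpart, read 4.75, 3.84 and 3.99 on controls 1, 2 and 3 and 3.70, 3.74 and 4.67 on DECB 4, 5 and 6, groups that overlapped, with a difference of -0.16 (95% interval -1.11 to 0.79). Gpt, the cytosolic alanine aminotransferase, read 5.80, 5.13 and 5.07 on controls 1, 2 and 3 and 4.30, 4.27 and 5.21 on DECB 4, 5 and 6, where only DECB 6 reached the controls, a difference of -0.74 (SE 0.38, adjusted p = 0.621). Gpt2, the mitochondrial form, read 4.69, 3.80 and 4.44 on controls 1, 2 and 3 and 4.37, 4.27 and 5.19 on DECB 4, 5 and 6, and its overlapping groups differed by 0.30 (95% interval -0.61 to 1.21). Agxt, which uses alanine to detoxify glyoxylate, read 5.43, 4.64 and 5.32 on controls 1, 2 and 3 and 3.82, 4.35 and 5.12 on DECB 4, 5 and 6, with DECB 6 among the controls, and differed by -0.70. Agxt2, a mitochondrial aminotransferase of glyoxylate, read 4.52, 3.42 and 3.46 on controls 1, 2 and 3 and 2.91, 2.79 and 4.22 on DECB 4, 5 and 6, with DECB 6 again between the controls, and differed by -0.49 (adjusted p = 0.705 and 0.905).

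Related enzymes were compared within each array, where the scaling of the array cancels. A ratio on a single array sets the brightness of unlike probes side by side and has no meaning of its own, so only its difference between arrays was read. The log2 signal of Got1 minus that of Got2 was 2.42, 2.03 and 1.80 on controls 1, 2 and 3 and 0.27, -0.18 and 0.57 on DECB 4, 5 and 6. This ratio was lower on every DECB array than on every control, with a mean difference of -1.86 (SE 0.28), -1.85 within slide 1 and -1.64 within slide 2. The log2 ratio of Gpt to Gpt2 was 1.1, 1.33 and 0.64 on controls 1, 2 and 3 and -0.068, -0.0005 and 0.025 on DECB 4, 5 and 6, with no overlap and a difference of -1.04 (SE 0.21). It was -1.08 within slide 1 and -1.05 within slide 2, so for both pairs the cytosolic enzyme read lower relative to the mitochondrial form in each slide. Sds, serine dehydratase, against Sdsl, its relative, was the third pair with no overlap, -0.58 (SE 0.16), but -0.24 within slide 1 and -0.88 within slide 2. The share of gene pairs in general with no overlap was not computed. Ratios of Bhmt to Bhmt2 (-0.69), Prodh to Prodh2 (-0.84) and Agxt to Agxt2 (-0.20) overlapped between groups. In exact, two-sided permutation tests the 3 pairs with no overlap had p = 0.1, the smallest that 3 against 3 arrays can give, and 0.2 after adjustment over the 6 pairs, so no pair could pass a threshold of 0.05.

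**Figure D2:**
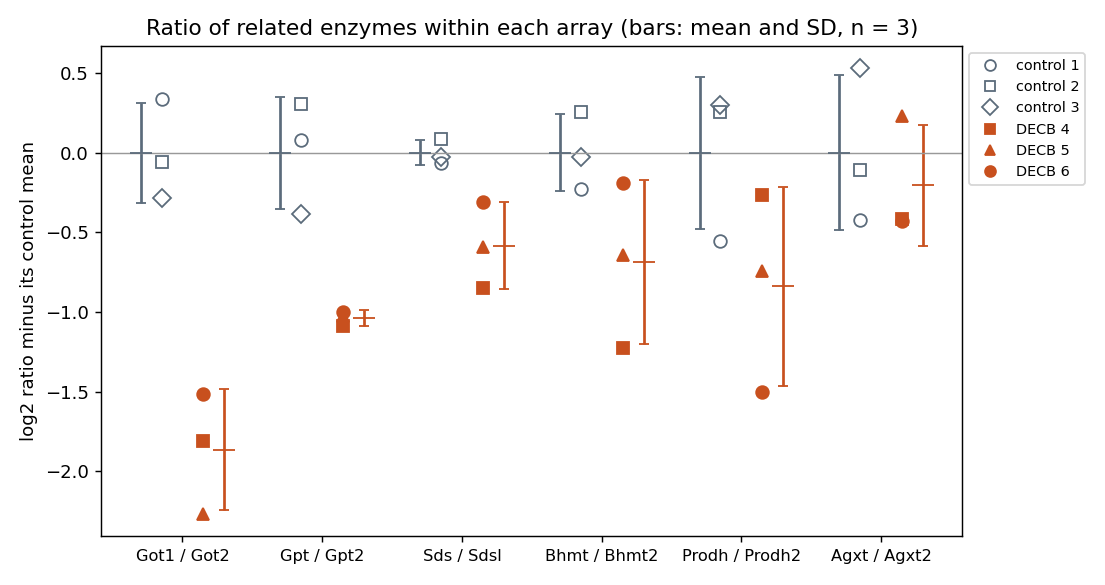
Log2 ratio of each of 6 pairs of related enzymes within each array, minus the mean ratio of the 3 control arrays; bars beside the points are the mean and SD (n = 3) of each group. The Got1 to Got2 and Gpt to Gpt2 ratios of the DECB arrays lie below those of all control arrays, while the Agxt to Agxt2 ratios overlap.

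The letters just before the annotated start of transcription are shown for the aspartate aminotransferase pair, which had the largest difference in ratio among the 6 pairs, and for the neighbouring histidine genes, which were both lower. Each line gives the 120 bases before the start, 5′ to 3′ on the gene's own strand, from RefSeq (GRCm38.p6), with CCAAT on either strand (CCAAT or ATTGG) in capitals.
Got1 (chr19:43524606-43524725, GRCm38.p6, minus strand): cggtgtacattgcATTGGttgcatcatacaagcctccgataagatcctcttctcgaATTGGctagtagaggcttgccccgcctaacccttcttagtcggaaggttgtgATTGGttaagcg
Got2 (chr8:95888402-95888521, GRCm38.p6, minus strand): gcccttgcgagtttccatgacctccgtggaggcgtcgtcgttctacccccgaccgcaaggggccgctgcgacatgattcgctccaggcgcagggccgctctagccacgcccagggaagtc
Hal (chr10:93488648-93488767, GRCm38.p6, plus strand): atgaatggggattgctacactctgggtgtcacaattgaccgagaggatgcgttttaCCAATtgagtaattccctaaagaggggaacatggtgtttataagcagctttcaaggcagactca
Amdhd1 (chr10:93540034-93540153, GRCm38.p6, minus strand): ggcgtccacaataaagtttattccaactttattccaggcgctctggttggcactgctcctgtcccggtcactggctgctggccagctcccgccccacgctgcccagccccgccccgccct
Got1 held 3 such matches, Hal 1, and Got2 and Amdhd1 0. CCAAT was found in this window in 20 of the 41 enzymes with an entry in the table (48.8%), against 27.5% of the measured genes with an entry. Other motifs were searched on both strands in the same window. TGACG, the core of the cAMP response element, was present in 4 of 41 (9.76%, against 18.6% of measured genes), AGAACA, the core of the glucocorticoid response element, in 0 (against 6.13%), AGGTCA, the core bound by many nuclear receptors, in 8 (19.5%, against 7.0%) and TATAAA in 3 (7.32%, against 5.71%). No matches of different motifs overlapped in the 4 windows printed. The motifs were chosen after these sequences were seen, and a match describes letters, not binding.

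The methionine cycle and transsulfuration, which make and spend the methyl donor S-adenosylmethionine and pass its sulfur to cysteine, had a median of -0.87 over 7 genes. Of these, 5 had all DECB arrays below all controls, against 9.4% of all genes, and 0 passed over all genes (smallest adjusted p = 0.223). Bhmt, which remethylates homocysteine with betaine, read 8.21, 8.34 and 8.24 on controls 1, 2 and 3 and 6.67, 6.86 and 7.62 on DECB 4, 5 and 6, a difference of -1.21 (SE 0.33, adjusted p = 0.223). The groups were apart, but the difference was -0.59 within slide 1 and -1.62 within slide 2, and Bhmt did not pass with slide as a block (adjusted p = 0.0747). Its 3 probes differed by -0.94, -1.21 and -1.57. Bhmt2, which methylates homocysteine from another donor, read 4.66, 4.31 and 4.5 on controls 1, 2 and 3 and 4.12, 3.73 and 4.04 on DECB 4, 5 and 6, lower on each DECB array than on any control, and differed by -0.53 (adjusted p = 0.624).

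Mat1a, which makes S-adenosylmethionine in adult liver, read 7.67, 7.29 and 6.88 on controls 1, 2 and 3 and 5.62, 5.53 and 6.58 on DECB 4, 5 and 6, with no overlap and a difference of -1.37 (SE 0.39, adjusted p = 0.252). Gnmt, which uses up S-adenosylmethionine by methylating glycine, read 7.03, 6.05 and 6.15 on controls 1, 2 and 3 and 5.06, 4.82 and 6.05 on DECB 4, 5 and 6, where DECB 6 touched the lowest control, a difference of -1.10 (SE 0.44, adjusted p = 0.465). Both fell with slide as a block (adjusted p = 0.0404 and 0.0355). Ahcy, which splits S-adenosylhomocysteine, differed by -0.68 with no overlap (adjusted p = 0.538). Cbs, which joins homocysteine to serine, differed by 0.20 with overlapping groups (95% interval -0.98 to 1.37). Cth, which releases cysteine, read 4.47, 4.51 and 4.58 on controls 1, 2 and 3 and 3.77, 3.62 and 3.57 on DECB 4, 5 and 6, with all DECB arrays below all controls. Its difference was -0.87 (SE 0.25, adjusted p = 0.264), it was -0.91 and -0.77 within slides 1 and 2, and it fell with slide as a block (adjusted p = 0.0494).

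Cdo1 and Csad carry cysteine on to taurine, which conjugates bile acids in mouse liver. Cdo1, cysteine dioxygenase, read 5.77, 5.28 and 5.11 on controls 1, 2 and 3 and 4.28, 3.98 and 4.73 on DECB 4, 5 and 6, a difference of -1.06 (SE 0.33, adjusted p = 0.312) with no overlap, and it fell with slide as a block (adjusted p = 0.0415). Csad, the decarboxylase of the next step, differed by -0.77 (adjusted p = 0.618), by -1.23 within slide 1 but by -0.011 within slide 2.

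**Figure D3:**
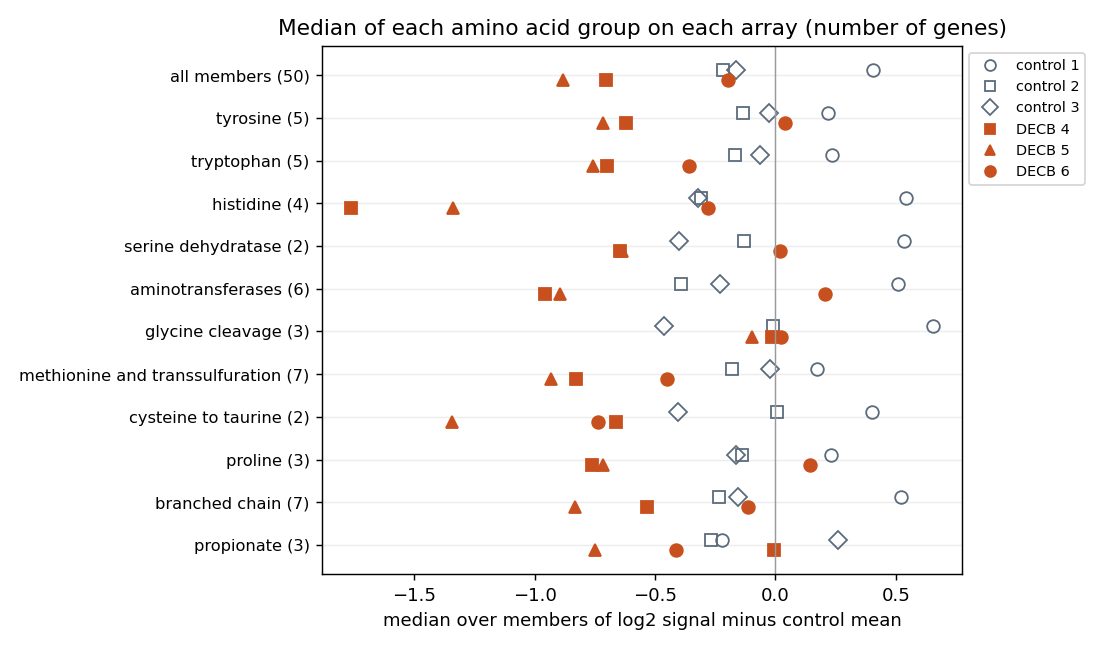
Median over the members of each amino acid group, on each array, of the log2 signal minus the gene's control mean; open grey symbols are control arrays and filled orange symbols DECB arrays, with the number of genes in parentheses. DECB 4 and DECB 5 lie left of all controls for histidine, methionine, tyrosine and tryptophan, while DECB 6 lies among the controls for histidine and to their left for methionine, tryptophan and cysteine to taurine.

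Tyrosine breakdown, 5 genes with a median of -0.39, had 2 enzymes with all DECB arrays below all controls, against 9.4% of all genes. Tat, which removes the amino group of tyrosine and is the classic glucocorticoid-responsive enzyme, differed by -0.012 (95% interval -1.04 to 1.02), and it was above 0 within each slide, 0.048 and 0.21. Hpd, the dioxygenase of the next step, read 7.03, 6.74 and 6.84 on controls 1, 2 and 3 and 5.65, 5.75 and 6.43 on DECB 4, 5 and 6, with every DECB array below every control and a difference of -0.93 (SE 0.32, adjusted p = 0.367). Hgd, which opens the ring of homogentisate, also had no overlap and differed by -0.64 (adjusted p = 0.538). Gstz1 and Fah, the last steps, differed by -0.39 and -0.34, and on both DECB 6 lay among the controls. The difference between Tat and the later steps was not tested.

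Tryptophan breakdown runs through kynurenine toward NAD synthesis or full oxidation, and its 5 genes had a median of -0.50 (-0.53 within slide 1 and -0.93 within slide 2). Tdo2, which opens the indole ring, read 1.24, 3.56 and 3.96 on controls 1, 2 and 3 and 2.74, 2.16 and -0.30 on DECB 4, 5 and 6. The slide 1 arrays read lowest for this gene, in contrast to most of the enzymes, and within each slide the DECB array was below the controls (-1.54 and -1.02). The difference was -1.39 (SE 0.98, adjusted p = 0.786), with -0.47 when DECB 6 was left out and -2.23 when control 1 was, and Tdo2 fell with slide as a block (-1.24, adjusted p = 0.0476). Afmid, which turns formylkynurenine into kynurenine, read 2.59, 2.19 and 2.29 on controls 1, 2 and 3 and 1.31, 1.39 and 2.00 on DECB 4, 5 and 6, with no overlap and a difference of -0.79 (SE 0.31, adjusted p = 0.457). Haao, a dioxygenase late in the route, had no overlap either and differed by -0.50, while Kynu and Kmo overlapped and differed by -0.41 and -0.40 (adjusted p = 0.61, 0.943 and 0.924).

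No enzyme of serine or glycine breakdown had groups that lay apart. Of all genes 9.4% lay apart below controls and 7.24% above, so this count over a few genes does not set them apart. Sds, which turns serine straight into pyruvate, read 4.41, 3.82 and 3.50 on controls 1, 2 and 3 and 2.84, 2.98 and 3.77 on DECB 4, 5 and 6, with DECB 6 inside the control range, and differed by -0.71 (SE 0.39, adjusted p = 0.647). Sdsl read 2.93, 2.19 and 1.98 on controls 1, 2 and 3 and 2.14, 2.02 and 2.54 on DECB 4, 5 and 6, with all DECB arrays inside the control range, and differed by -0.13. Of the glycine cleavage system, Gldc, the decarboxylase, read 5.45, 4.52 and 4.28 on controls 1, 2 and 3 and 4.10, 3.08 and 4.49 on DECB 4, 5 and 6 and differed by -0.86 (SE 0.48, adjusted p = 0.668), with DECB 5 the lowest array. Gcsh, the lipoyl carrier protein of that complex, lay between 3.53 and 3.65 on all 6 arrays and differed by -0.030 (95% interval -0.62 to 0.56). Amt, the aminomethyltransferase, was dim and differed by 0.41.

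Prodh, proline dehydrogenase, read 5.23, 4.97 and 4.86 on controls 1, 2 and 3 and 4.0, 3.61 and 4.17 on DECB 4, 5 and 6. All DECB arrays lay below all controls, with a difference of -1.10 (SE 0.29, adjusted p = 0.206), -1.07 and -0.92 within slides 1 and 2, and Prodh fell with slide as a block (adjusted p = 0.0392). Prodh2, which acts on hydroxyproline, read 4.56, 3.49 and 3.33 on controls 1, 2 and 3 and 3.03, 3.13 and 4.44 on DECB 4, 5 and 6, so that the slide 1 arrays stood above the rest in both groups, and differed by -0.26. Aldh4a1, which carries out the next dehydrogenation of both routes, differed by -0.43 (adjusted p = 1 and 0.827). Etnppl, a lyase that breaks down phosphoethanolamine, read 3.87, 2.73 and 2.78 on controls 1, 2 and 3 and 1.12, 0.66 and 2.04 on DECB 4, 5 and 6, the second lowest difference of the set at -1.85 (SE 0.48, adjusted p = 0.203). The groups did not overlap, DECB levels averaged 27.7% of control, and Etnppl fell with slide as a block (adjusted p = 0.0186). Aass, which starts lysine breakdown, read 6.43, 4.99 and 5.56 on controls 1, 2 and 3 and 4.72, 4.48 and 5.79 on DECB 4, 5 and 6, with DECB 6 above controls 2 and 3, and differed by -0.66 (adjusted p = 0.809). Glud1, glutamate dehydrogenase, read 5.25, 5.63 and 5.86 on controls 1, 2 and 3 and 5.62, 5.48 and 5.25 on DECB 4, 5 and 6, overlapping throughout, and differed by -0.13 (95% interval -0.82 to 0.56), although its other probe differed by -0.56.

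The 7 branched-chain genes had a median of -0.41 and the 3 propionate genes -0.48. Of these only Mccc1 was under an unadjusted p of 0.05 in limma, lower in DECB. Of all genes 5.79% were lower and 4.22% higher at that threshold, so this count does not set the 2 groups apart. Mccc1, the biotin-carrying subunit of the leucine-pathway carboxylase, read 1.88, 1.63 and 2.01 on controls 1, 2 and 3 and 1.18, 0.97 and 1.19 on DECB 4, 5 and 6, with no overlap and a difference of -0.73 (SE 0.27, adjusted p = 0.42). Mccc2, the other subunit, also had no overlap and differed by -0.53 (adjusted p = 0.593). The subunits of the branched-chain ketoacid dehydrogenase differed by -0.64 for Bckdha, -0.37 for Bckdhb and 0.077 for Dbt. Dbt read -0.99, 1.21 and 1.35 on controls 1, 2 and 3 and 1.5, 1.43 and -1.12 on DECB 4, 5 and 6, below 0 on slide 1 and above 1 elsewhere in both groups. Ivd, of leucine, and Hibch, of valine, differed by -0.26 and -0.41. In propionate use, Pcca read -0.95, -0.88 and -0.0019 on controls 1, 2 and 3 and -0.62, -1.36 and -1.54 on DECB 4, 5 and 6, with overlapping groups, and differed by -0.56 (adjusted p = 0.788). Pccb, its partner subunit, differed by -0.014 (95% interval -0.75 to 0.72), and Mmut, the cobalamin-dependent mutase of the last step, by -0.48.

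**Figure D4:**
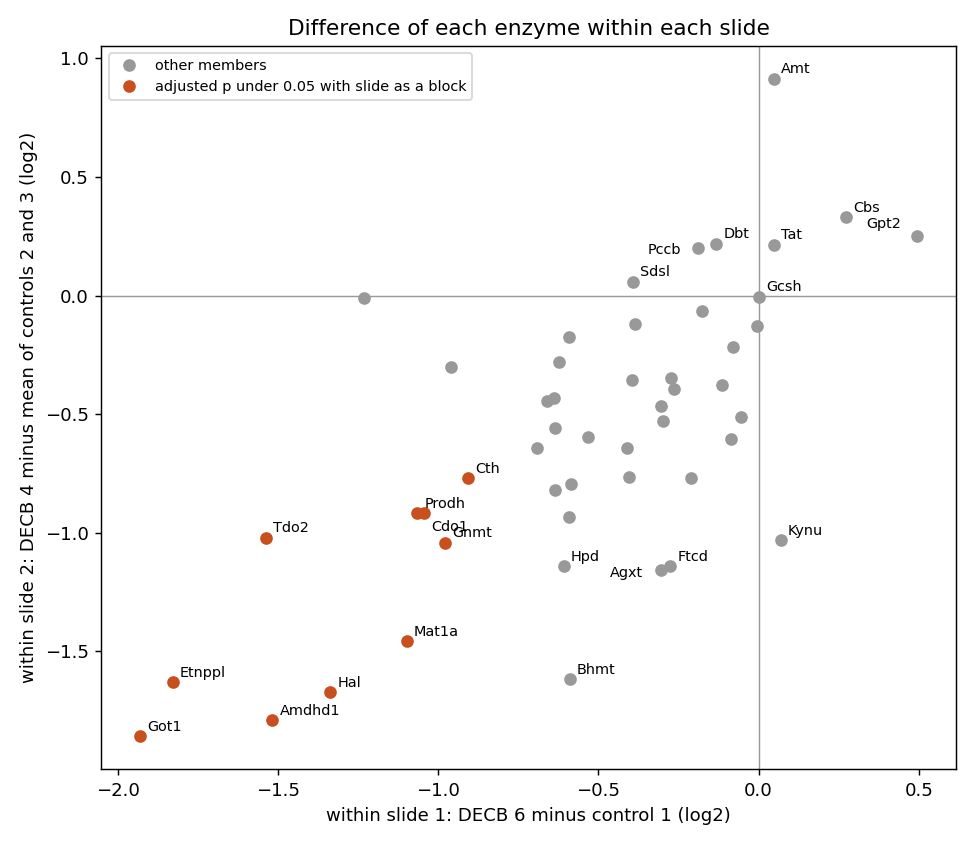
Difference of each of the 50 enzymes within slide 1 (horizontal, DECB 6 minus control 1) and within slide 2 (vertical, DECB 4 minus the mean of controls 2 and 3), in log2 units; orange marks the 10 enzymes with an adjusted p under 0.05 in the fit with slide as a block, which used these same arrays. Of the 50 enzymes 41 lie below 0 on both axes, with Got1, Etnppl, Amdhd1 and Hal at the lower left and Gpt2, Cbs, Tat and Amt above 0 on both.

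Other enzymes of the same pathways were read from a list of 46 genes that are not in the set, 43 of them measured. The difference was below 0 for 28, against 52.5% of all genes, and the median was -0.41, against -0.027 over all genes. All 3 DECB arrays lay below all 3 control arrays for 10 of the 43, against 9.4% of all genes, and above them for 2, against 7.24%. None passed limma's test over all genes (6 lower and 2 higher at an unadjusted p under 0.05, against 5.79% and 4.22% of all genes). With slide as a block 2 of 43 fell and 1 rose. These shares were near the 3.92% and 2.73% of all genes, so the block counts alone do not set the list apart. The gene that rose in that fit, Acmsd, which diverts the tryptophan route away from NAD, differed by 1.20 (SE 0.31, adjusted p = 0.203 without the block and 0.0383 with it). Those that fell were Gcat, of threonine and glycine (-0.98), and Auh, of leucine (-0.87), with adjusted p = 0.242 and 0.376 without the block and 0.0461 and 0.0489 with it. Ppm1k, the phosphatase that activates the branched-chain ketoacid dehydrogenase, differed by -1.35 (adjusted p = 0.274).

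Of 15 regulators known to act on these genes (receptors, transcription factors, coactivators and the kinase Sik1), 0 passed limma's test over all genes. At an unadjusted p under 0.05 there were 3 lower and 0 higher, against 5.79% and 4.22% of all genes, and 12 were below 0, against 52.5%. With slide as a block 3 fell, Ppara, Ppargc1a and Creb3l3, against 3.92% of all genes (adjusted p = 0.0217, 0.0369 and 0.0324). Ppara, the fatty acid receptor that directs the fasting response, differed by -1.66 (SE 0.28, adjusted p = 0.068). Ppargc1a, a coactivator of gluconeogenic genes, differed by -1.43, Creb3l3, a liver factor activated by fasting, by -1.13, and Insr, the insulin receptor, by -0.59 (adjusted p = 0.204, 0.464 and 0.616). Klf15, which drives amino acid breakdown genes in fasting, differed by -0.16, Nr3c1, the glucocorticoid receptor, by -0.25, and Gcgr, the glucagon receptor, by -0.57 (adjusted p = 0.994, 0.987 and 0.868).

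Markers of the cells a liver sample can hold were read beside these results. The 6 hepatocyte markers, Alb and Ttr among them, were well above background on all 6 arrays, and their summed signal, in units of the array's 75th percentile, was 1740 to 2180 in controls and 1610 to 1900 in DECB. Their median difference was -0.31, with 6 of 6 below 0 and 0 past the test (0 at an unadjusted p under 0.05). Summed signals of periportal markers, 582 to 718 in controls and 409 to 551 in DECB, did not overlap, with 4 of 5 markers below 0. Of those below 0, Pck1 differed by -1.16 with no overlap (adjusted p = 0.323), Ass1 by -0.45, Gls2 by -0.39 and Cyp2f2 by -0.039. Cdh1 went the other way by 1.43 with no overlap (adjusted p = 0.0963) and rose with slide as a block (adjusted p = 0.033). Sums of pericentral markers overlapped only at their edge, 479 to 510 against 311 to 481, with 5 of 6 markers below 0. The summed signal of erythroid markers was lower in DECB, 64.4 to 97.7 against 15.7 to 41.1, with 2 of 3 measured markers below 0. That of cholangiocyte markers was higher, 0.635 to 0.907 against 1.05 to 1.54, with 3 of 3 above 0 and with Krt7 and Epcam not among the measured genes. Of these 3, Krt19 was well above background on 2 control and 2 DECB arrays and Spp1 on 2 and 3. Sox9, the brightest, and Spp1 overlapped between groups, while Krt19 did not. Kupffer (20.3 to 27.3 against 20.1 to 22.8) and endothelial markers (20.4 to 38.2 against 14.8 to 30.5) overlapped in their sums. So did stellate markers (22.5 to 45.2 against 15.3 to 31.9), with Des not among the measured genes. Leukocyte sums were 2.02 to 2.87 in controls and 4.1 and 3.69 on DECB 5 and 6, with Ms4a1 not measured. On DECB 4 the leukocyte sum was 2.48 but lacks Cd3e, which had no value there, so it cannot be set against the others. Below 0 were 4 of 6 Kupffer, 4 of 6 endothelial, 2 of 5 stellate and 1 of 5 leukocyte markers. Within the leukocyte list S100a8 and S100a9, abundant in neutrophils, differed by 1.57 and 1.57 with no overlap (adjusted p = 0.101 and 0.167). S100a8 was dim in controls, well above background on 2 of 3. Both genes rose with slide as a block (adjusted p = 0.0311 and 0.0216). Stab2, an endothelial marker, differed by -0.996 (adjusted p = 0.53) and fell in that fit (adjusted p = 0.0465). The part of these cells in the differences above was not tested. In tissue RNA, fewer cells of a type and less RNA per cell cannot be told apart.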

How the data were processed

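The deposited scanner files, 1 per Cy3 array, came from Agilent Feature Extraction 11.0.1.1 per the file headers, and their processed signal is an intensity, background-subtracted and spatially detrended by that software as the authors ran it. The series' value table, deposited on a log2 scale by a method not given in the sources used here, has the same median, 5.34, in all 6 columns. Across 25423 probes its differences between arrays correlated with those of the scanner files at -0.034 to 0.044, so it was used in no comparison, and its centring and direction stay unknown.

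Processed signals were put on a log2 scale and centred on the 75th percentile of the array's 43020 non-control spots. Spots marked as outliers counted toward that percentile and were left out when the spots of a probe were averaged. A probe was kept if at least 3 of 6 arrays had it well above background (25423 of 39429), 27234 probes were named through RefSeq (GRCm38.p6), and the brightest probe stood for a gene. The member probes of 8 enzymes with more than 1 kept probe had the same sign. Differences were tested, two-sided, in limma 3.58.1 under R 4.3.3 (lmFit, eBayes), with p-values adjusted by Benjamini-Hochberg over 14807 genes and 3 arrays per group, whose number limits precision. The normexp alternative (offset 50) used median spot signals. The fit was also run on simulated data with noise drawn independently for each gene and array, which does not cover arrays that may share RNA. Groups came from sample titles, which share no number between groups. Named were the enzymes at an unadjusted p under 0.05, the smallest p of each amino acid group and both members of the 6 pairs, then the others by their difference, and of other lists the genes that passed and the 4 with the smallest p, of which 1 is not reported here. Auh and 4 marker genes were named because they passed with the block. Klf15, Nr3c1, Gcgr, Cyp2f2, Pck1, Ass1, Gls2, Krt19, Sox9, Spp1, Cd3e and the array values of Tdo2 and Dbt were added after their values were seen. The enzymes and lists were chosen with earlier results of these data known. Promoter entries were matched by symbol for 41 of 50 enzymes.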

Additional observations from a re-analysis of the deposited data

How the results depend on the processing

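No paired analysis was possible because control and DECB titles have no number in common, while in the source names all samples carry the same number. Quantile normalization, normexp, another filter on dim probes, the mean of a gene's probes, leaving out slide 1 or any array, and averaging controls 2 and 3 (added after seeing the data, since these arrays correlated at 0.992 across genes) each left 0 enzymes past the adjusted threshold, higher or lower. The slide block called 10 enzymes lower (26 at an unadjusted p under 0.05, against 16.7% of all genes). It also called 2 of 43 related enzymes lower and 1 higher, and 3 of 15 regulators lower. Of all genes it called 3.92% lower and 2.73% higher. With probes above background on all arrays 1 regulator, Ppara, was called lower, and the glycine cleavage median was -0.45 because Amt was not tested. Without slide 1, 27 enzymes were lower at an unadjusted p under 0.05, against 13.7% of all genes. In that setting 40 lay apart below controls, against 31.1%, and 1 above, against 26.5%. Leaving out each array in turn gave 8 to 21 lower at an unadjusted p under 0.05, 17 to 38 apart below and 0 to 1 above. The 8 came without control 3 or DECB 5, against 3.62% and 4.25% of all genes. The 21, 38 and 1 came without DECB 6, against 9.31%, 24.4% and 16.8%. No such share was computed where 17 lay apart below. Medians were -1.53 to -0.78 for histidine, -0.997 to -0.32 for aminotransferases, -0.78 to -0.44 for tryptophan, -0.67 to -0.19 for propionate, -0.61 to -0.23 for tyrosine, -0.64 to -0.16 for serine, -0.72 to -0.29 for proline and -0.71 to -0.33 for branched chain. The Agxt to Agxt2 ratio was -0.42 to 0.061. Within slide 1 the methionine median was -0.62 and the Bhmt to Bhmt2 ratio turned to 0.034. Within slide 2 the tryptophan median was -0.93 and the cysteine to taurine median -0.46. The causes were not tested.

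Enzymes near 0 changed sign. Tat was 0.17 under quantile normalization, 0.14 with the block, 0.048 within slide 1 and 0.21 within slide 2. Gcsh was 0.044 under quantile normalization, 0.028 under normexp and 0.0006 within slide 1, and Glud1 was 0.068 and 0.075 under those scalings. Pccb was 0.033 with the block, 0.20 within slide 2, 0.074 without slide 1 and 0.042 with controls 2 and 3 averaged. Kynu was 0.069 and Dbt -0.13 within slide 1, and Sdsl 0.059 within slide 2. Leaving out each array in turn spanned -0.35 to 0.29 for Tat, -0.33 to 0.15 for Sdsl, -0.47 to 0.12 for Got2, -0.71 to 0.12 for Prodh2, -0.68 to 0.94 for Dbt, -0.60 to 0.037 for Ivd, -0.23 to 0.58 for Cbs, -0.18 to 0.19 for Pccb, -0.30 to 0.0052 for Glud1, -0.88 to 0.011 for Kynu and -0.057 to 0.0037 for Gcsh. Signal over background was lowest on slide 1, where the 75th percentile was 3.75 and 4.04 times background, against 25 to 30.6 times on the other arrays, so dim genes such as Amt are least certain there.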
